A study of Sus scrofa with 64 samples.

Results

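Gene expression in the back fat and the abdominal fat of Large White (LW) and Iberian (IB) pigs was compared on 8 arrays. They were chosen by tissue and breed label from the 64 arrays of a study of 16 tissues, 1 array for each tissue of each of 4 pigs. Each breed was represented by 1 male and 1 female (LWM, LWF, IBM and IBF), so that 4 fat arrays per breed came from 2 animals. The LW male weighed 38.8 kg and the LW female 36.2 kg at 87 days of age, against 25.4 kg for the IB male and 32.8 kg for the IB female at 89 days. The piglets of the breeds came from 2 breeding companies and were then kept together on the same diets, without any treatment. Breed, supplier and body weight cannot be told apart, and the labels name no genotype within a breed. Back fat was taken over the loin, and abdominal fat from outside the sheath of the rectus muscle. With 2 animals a breed all that follows is a description of these animals, and an exact permutation test of 2 against 2 animals cannot give a two-sided p below 0.333.

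White adipocytes store triglyceride. In the pig they are themselves the main place where fatty acids are made from glucose and acetate, by acetyl-CoA synthetase, acetyl-CoA carboxylase and fatty acid synthase, after which elongases and stearoyl-CoA desaturase lengthen and desaturate the chain. Lipases on the lipid droplet release the acids again, and insulin favours storage over release. Iberian pigs are an obese Mediterranean type and Large White pigs a lean, fast growing one.

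The values are log2 signals of probe sets, called probes, and 1 unit stands for a factor of 2 in signal. On the fat arrays they lay between 1.98 and 14.29 with a median of 5.44, and levels of different probes were not compared, as each probe has its own brightness. Adiponectin (ADIPOQ), a hormone of adipocytes, lay between 10.54 and 12.25 on the 8 fat arrays and at 7.49 or less on all 56 arrays of the other 14 tissues. The brightest probe of FASN, fatty acid synthase, lay between 11.44 and 12.60 in fat and at 9.66 or less elsewhere. SCD, stearoyl-CoA desaturase, ranged from 9.60 to 13.16, and 9 arrays of other tissues lay above the lowest fat array. LEP, the satiety hormone leptin, lay between 4.08 and 7.50 on 1 probe, with 3.90 or less elsewhere, whereas 12 arrays of other tissues were above the lowest fat array on its other probe. The fat label thus had its markers on every array, with LEP and SCD weaker as marks of fat in these data than ADIPOQ and FASN.

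The abdominal fat of the IB male stood apart in lymphocyte genes. JCHAIN, the joining chain of antibodies, was at 8.05 there and between 4.67 and 5.66 on the other 7 fat arrays, and CD79B, part of the B cell receptor, at 5.56 against 3.12 to 3.49. CD3E of the T cell receptor was at 6.84 there and at 5.51 or less on the others. The list mean of skeletal muscle genes was highest in the back fat of the IB female, at 4.73, and between 3.85 and 4.26 on the other arrays. Array medians lay between 5.39 and 5.46.

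Over all 23935 probes the arrays of an animal's own depots were 0.0268 apart as 1 minus the squared correlation (mean of 4 pairs). Animals of the same breed were 0.0277 apart in the same depot (mean of 4 pairs) and animals of the other breed 0.038 (mean of 8 pairs). The median difference between breeds over all probes was -0.01, and RMA equalises the arrays as wholes, so that each difference below is relative to the other probes.

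A probe was called separated where all 4 arrays of a breed lay above all 4 of the other. This held for 1113 probes higher in LW (4.65% of all) and 1192 higher in IB (4.98%). A difference of at least 1 log2 unit was found for 88 of the former (0.368%) and 96 of the latter (0.401%). Just inside and just outside that threshold lay absolute differences of 1.0001 and 0.9991. Among these 184 probes 35 of those higher in LW had a gene symbol, for 30 genes, and 49 of those higher in IB, for 45 genes. With each animal's mean over its depots as the unit, limma called 34 probes at an adjusted p under 0.05 (0.142%), 13 higher in LW and 21 higher in IB, of which 33 were also separated. Many of the 34 differed by breed outside fat too. The called probes of DDX39B, PTGES3 and CCDC25, for example, were separated the same way in all 14 other tissues. With the 8 arrays as units and the animal as a block limma called 565, among them all 34. Without either LW animal it called 0, and with sex in the fit 87, so that the calls of single genes below are no firmer than the values of the animals beside them.

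**Figure D1:**
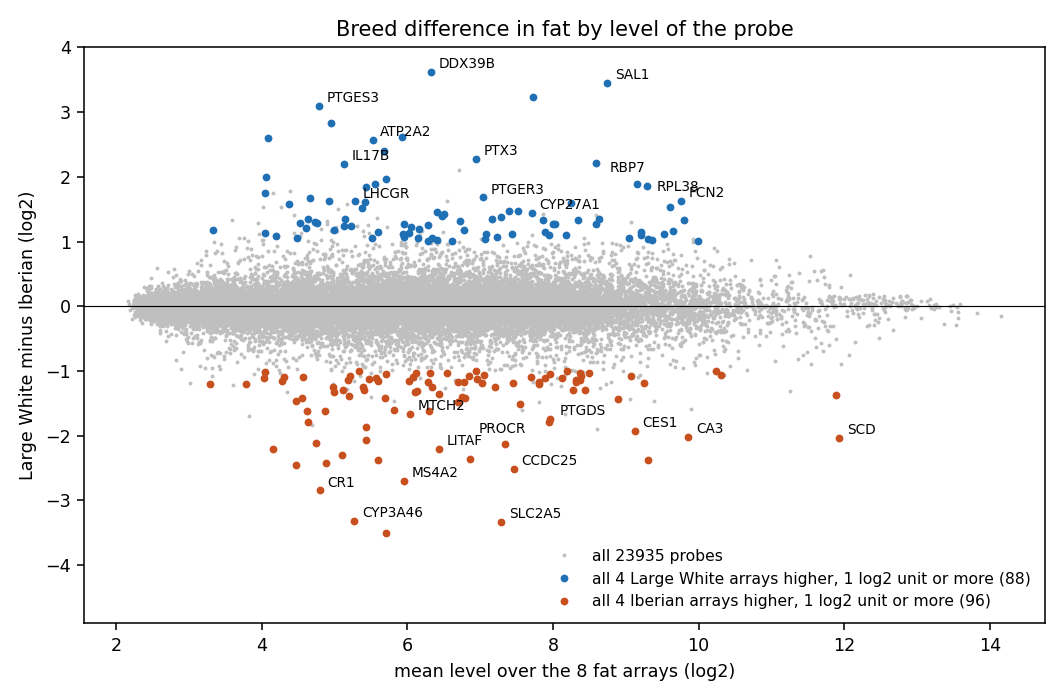
Breed difference (LW minus IB, log2) of each of the 23935 probes against its mean level over the 8 fat arrays (log2). Coloured points are the 88 and 96 probes with no overlap between breeds and a difference of 1 log2 unit or more, and the 24 genes named by size are written beside theirs. The named genes higher in LW reach 3.62 and those higher in IB reach -3.33.

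SCD, which puts the double bond into oleic acid, was the clearest case among the genes of fatty acid synthesis. In back fat it was at 12.29 and 12.02 in the LW male and female and at 13.02 and 13.16 in the IB male and female. In abdominal fat it was at 9.60 and 9.72 in LW and at 12.82 and 12.77 in IB. The IB arrays were thus all above the LW arrays, with the LW abdominal fat far below the rest. The difference was -2.04 (SE 0.10, adjusted p = 0.0106 by limma on animal means), a signal 4.10 times higher in IB, made up of 1.91 times in back fat and 8.80 times in abdominal fat. The difference between depots in this breed difference was 2.20 log2 units (SE 0.21), with an adjusted p of 0.0595 by limma. The breed call of SCD was lost in back fat alone (adjusted p = 0.0991 by limma), and without the LW male or the LW female, which left 1 LW animal. Without the abdominal array of the IB male the difference was -1.64 (adjusted p = 0.118 by limma). In that fit his mean was filled in from his back fat and the mean depot difference of the other animals. It thus took the depot difference as equal in both breeds, which for SCD it was not, so that -1.64 does not show the weight of that array. In the other 14 tissues the mean breed difference of SCD was -0.21, and fat as the mean of both depots differed from them by -1.83 (adjusted p = 0.0201 by limma). Single tissues ranged around that mean, with 6 separated the same way and 3 the opposite way, and biceps femoris muscle (-1.32) and thyroid gland (-1.16) had a larger difference than back fat (-0.94).

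The brightest probe of FASN pointed the same way by less. It was at 12.02 and 12.09 in LW back fat and at 12.37 and 12.58 in IB back fat (male, then female). In abdominal fat the LW male and female were at 11.44 and 11.93 and the IB male and female at 12.14 and 12.60. The breeds did not overlap, but the lowest IB array was only 0.05 above the highest LW array, and the difference of -0.55 (SE 0.17) had an adjusted p of 0.273 by limma. The other 3 probes of FASN had differences of -1.27, -0.79 and -0.21 with overlapping breeds, the last of them on a probe at 4.97 or less that was no brighter in fat than in other tissues.

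ACSS2, which activates acetate, was separated on both of its probes. The brighter was at 8.30 and 7.77 in LW back fat, 7.39 and 7.61 in LW abdominal fat, 8.83 and 8.85 in IB back fat and 8.64 and 8.69 in IB abdominal fat. The 4 IB arrays lay close together, above every LW array. The difference was -0.98 (SE 0.11, adjusted p = 0.0686 by limma), and that of the dimmer probe -1.01.

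ELOVL6, the elongase that feeds SCD, was not separated over all 8 arrays on any of its 4 probes, whose differences ran from -1.11 to -0.76. On the brightest it was at 12.19 and 11.97 in LW back fat against 12.36 and 12.70 in IB, and at 11.21 and 11.36 in LW abdominal fat against 12.10 and 12.61 in IB. The breeds did not overlap within either depot, while the abdominal fat of the IB male lay below the back fat of the LW male. ME1, malic enzyme, had differences of -0.55 and -1.14 on its 2 probes and SLC25A1, the mitochondrial citrate carrier, one of -0.52, all with overlap.

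Of 37 probes for 25 genes on the list of fatty acid synthesis, 4 were separated with IB higher (SCD, FASN and ACSS2 on 2 probes) and 1 with LW higher (ELOVL1, by 0.16). That is 10.8% and 2.70% of the list, beside 4.98% and 4.65% of all probes. The median difference was -0.29, and 26 of 37 probes were below 0, beside 12475 of all 23935. Within back fat alone, 22 of the 37 had both IB arrays above both LW arrays and 2 the reverse, where the shares of all probes were 22.9% and 21.8%. Within abdominal fat the counts were 19 and 6, where the shares of all probes were 23.3% and 19.7%. The count over all 8 arrays depended on a single array. Without the abdominal fat of the IB male 12 probes had IB higher, for SCD, FASN, ACSS2, ELOVL6, ACACA and TKT, when 7.87% of all probes did, and leaving out any other array gave 4 to 6.

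**Figure D2:**
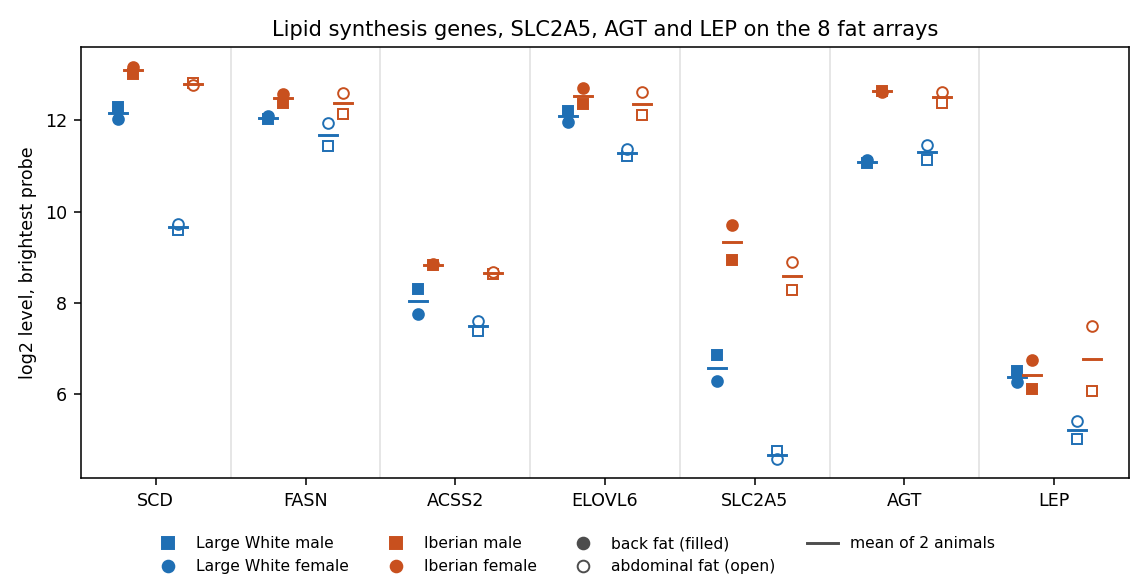
Level (log2, brightest probe of each gene) on every fat array; filled marks are back fat, open marks abdominal fat, squares males, circles females, and bars the mean of 2 animals. SCD, FASN, ACSS2, SLC2A5 and AGT have no LW array above an IB array, whereas ELOVL6 and LEP overlap, LEP in back fat.

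LEP overlapped between breeds in back fat. It was at 6.50 and 6.26 in the LW male and female and at 6.12 and 6.76 in the IB male and female on its brighter probe. In abdominal fat LW was at 5.03 and 5.43 and IB at 6.08 and 7.49, so that there the breeds did not overlap. Over both depots the difference was -0.80 (SE 0.33, adjusted p = 0.402 by limma), and on the other probe -0.65. The brighter probe gave -0.29 without the IB female and -1.32 without the IB male (adjusted p = 0.0253 by limma).

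SLC2A5, the fructose transporter GLUT5, had the largest difference with IB higher among probes with a symbol. It was at 6.86 and 6.29 in LW back fat and 4.76 and 4.59 in LW abdominal fat, against 8.95 and 9.70 in IB back fat and 8.28 and 8.89 in IB abdominal fat. No LW array came within 1.42 log2 units of an IB array. The difference was -3.33 (SE 0.26, adjusted p = 0.0337 by limma), which is 6.72 times in back fat and 15.1 times in abdominal fat. It was particular to fat by the test against the other 14 tissues (difference of -3.46, adjusted p = 0.0201 by limma), and in diaphragm muscle the breed difference ran the other way, at 2.44.

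AGT, angiotensinogen, which adipocytes secrete, was also higher in IB. It lay between 11.05 and 11.46 on the 4 LW arrays and between 12.37 and 12.64 on the 4 IB arrays. The difference was -1.37 (SE 0.12) with an adjusted p of 0.0498 by limma. Of 21 probes of adipokines and their receptors 3 were higher in IB (AGT, the neuropeptide Y receptor NPY1R and the NAD-making enzyme NAMPT) and 3 higher in LW (NNAT, the adiponectin receptor ADIPOR1 and 1 of 4 probes of the vascular growth factor VEGFA).

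On the side of release, the genes of lipolysis and the lipid droplet had 4 of 22 probes higher in LW (18.2%, beside 4.65% of all probes) and 0 higher in IB, with a median difference of 0.21. The first count was 7 without the abdominal fat of the LW female, when 7.15% of all probes were higher in LW, and 4 to 6 without any other array, and the second 2 without the back fat of the LW male. PNPLA2, the lipase that opens triglyceride breakdown, was between 11.76 and 12.04 on the LW arrays and between 10.90 and 11.66 on the IB arrays. LIPE, hormone-sensitive lipase, was between 10.90 and 11.36 in LW and between 10.48 and 10.69 in IB. ANGPTL4, an inhibitor of lipoprotein lipase, was between 10.23 and 10.56 in LW and between 8.84 and 9.84 in IB, and the fatty acid carrier FABP5 had a difference of 0.48. These gaps were small beside that of SCD, with adjusted p between 0.148 and 0.245 for the 4 genes by limma. ABHD5, the co-activator of PNPLA2, had a difference of 1.10 with overlap, and PNPLA3 one of -1.41, also with overlap.

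FABP4, the main fatty acid carrier of adipocytes, ranged only from 13.01 to 13.35 over the 8 arrays. Triglyceride synthesis had 3 of 23 probes higher in LW (DGAT1, LPIN1 and a dim probe of GPAM) and 1 higher in IB (AGPAT5), all by 0.60 or less. NR1H3, the oxysterol receptor LXR alpha, was higher in LW by 0.40, while SREBF1, the transcription factor of lipid synthesis, had a difference of 0.22 with overlap.

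The growth hormone and IGF axis stood higher in LW on several probes. Of its 35 probes 9 were higher in LW (25.7%) and 0 in IB, beside 4.65% and 4.98% of all probes, with 4 of the 9 past 1 log2 unit (0.368% of all probes). They belonged to IGF2, IGF1, STAT5B and IGFALS, and 5 of the 9 were probes of IGF2, which share 1 transcript and are not separate findings. The brightest probe of IGF2, the imprinted fetal growth factor, was at 10.12 and 10.23 in LW back fat and 10.87 and 10.63 in LW abdominal fat. In IB it was at 9.08 and 9.39 in back fat and 8.88 and 9.18 in abdominal fat. The lowest LW array was 0.73 above the highest IB array, and the difference was 1.33 (SE 0.14, adjusted p = 0.0597 by limma), 1.92 times in back fat and 3.31 times in abdominal fat. The other 8 of the 13 IGF2 probes were not separated and had differences from -0.19 to 0.82. IGF1 was higher in LW by 1.07 on 1 of 3 probes, while its brightest had a difference of 0.28 with overlap.

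Insulin signalling had 5 of 22 probes higher in LW (22.7%, beside 4.65% of all probes) and 1 in IB (4.55%, beside 4.98%). Within back fat 12 had both LW arrays higher (54.5%) and 3 the reverse (13.6%), where the shares of all probes were 21.8% and 22.9%. Within abdominal fat the counts were 6 (27.3%) and 7 (31.8%), beside 19.7% and 23.3% of all probes, so that there the list did not lean to LW. The adaptor GRB10 lay between 8.72 and 9.43 in LW and between 7.74 and 8.52 in IB. The kinase AKT1 lay between 9.30 and 9.76 in LW and between 8.59 and 8.92 in IB. The glucose transporter SLC2A1 lay between 6.16 and 6.70 in LW and between 5.22 and 5.76 in IB, and the transcription factor FOXO1 and a dim probe of IRS1 were higher in LW by 0.48 and 0.21. HK1, hexokinase, was the gene higher in IB, by 0.55. None of these passed limma (adjusted p from 0.129 to 0.513), and a second probe of GRB10, AKT1 and FOXO1 each had overlapping breeds.

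NNAT, neuronatin, an imprinted membrane protein of adipocytes and neurons, was at 8.41 and 8.32 in LW back fat against 7.93 and 7.84 in IB back fat. In abdominal fat it was at 9.97 and 9.37 in LW against 7.58 and 7.36 in IB. The difference was thus 1.39 times in back fat and 4.58 times in abdominal fat (difference between depots of -1.72, adjusted p = 0.113 by limma).

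**Figure D3:**
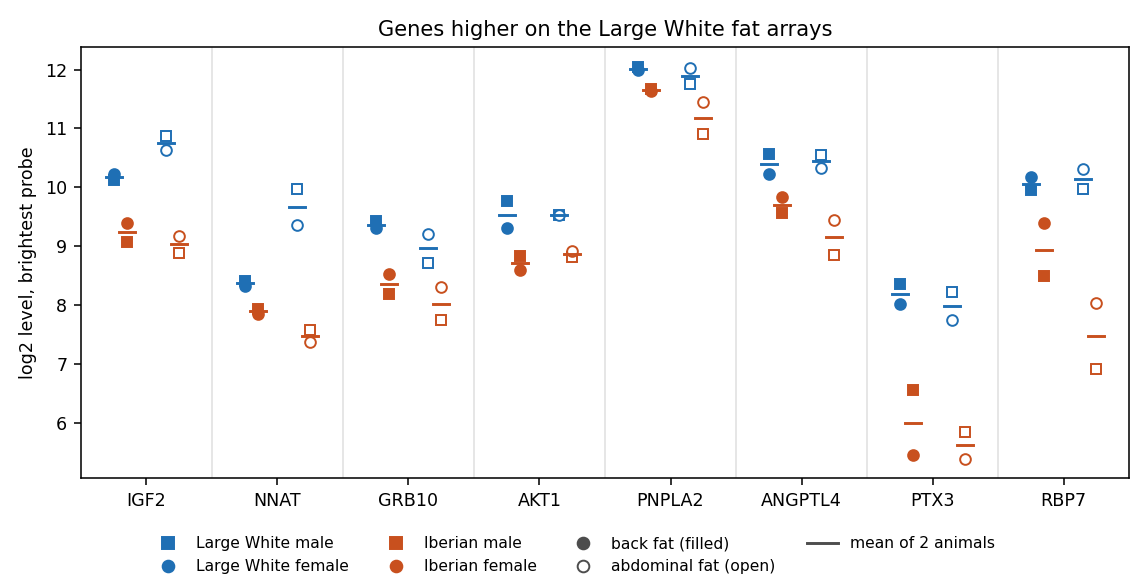
Level (log2, brightest probe) of 8 genes with no overlap between breeds, all higher in LW, on the 8 fat arrays; marks as in the plot of the lipid synthesis genes. IGF2 and NNAT have their widest gap in abdominal fat, and PTX3 lies between 7.74 and 8.36 in LW and between 5.38 and 6.55 in IB.

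Among the 12 genes with the largest differences higher in LW, SAL1, a salivary lipocalin that binds small hydrophobic molecules, stood first of those not shared with all other tissues. It was at 11.47 and 10.54 in LW back fat and 10.19 and 9.66 in LW abdominal fat. In IB it was at 7.94 and 7.46 in back fat and 6.72 and 5.95 in abdominal fat. All LW arrays were at least 1.72 above all IB arrays, and the difference was 3.45 (SE 0.31), a factor of 10.9, with an adjusted p of 0.0523 by limma on animal means and 0.0352 for fat against the other tissues.

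IL17B, a cytokine of the interleukin 17 family, lay between 5.54 and 6.97 on the LW arrays and between 3.75 and 4.32 on the IB arrays (2.20, adjusted p = 0.049 by limma), and of its 2 dimmer probes 1 was separated, by 0.69. PTX3, a secreted pattern recognition protein, had a difference of 2.28 (adjusted p = 0.0818), and one of 1.40 with overlap on a dimmer probe. PTGER3, the receptor by which prostaglandin E2 restrains lipolysis, lay between 7.64 and 8.06 in LW and between 5.43 and 6.80 in IB (1.68, adjusted p = 0.0328). Their mean differences over the other tissues lay between -0.09 and 0.14, but PTGER3 had 2.16 in stomach, more than in either fat, PTX3 1.53 in biceps femoris and IL17B 1.15 in stomach. For IL17B the test of fat against the others gave an adjusted p of 0.0201 by limma, for PTGER3 0.05005 and for PTX3 0.0907.

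RBP7, a retinol carrier, lay between 9.95 and 10.32 in LW and between 6.91 and 9.38 in IB, lowest in the abdominal fat of the IB male. In diaphragm muscle its breed difference was 2.23, beside 1.12 in back fat and 2.67 in abdominal fat. FCN2, a lectin of the complement system, had a difference of 1.63, or 0.95 without the IB female. It was also higher in LW by 1.88 in diaphragm muscle, 1.68 in adrenal cortex and 1.31 in thyroid gland. The luteinising hormone receptor LHCGR had a difference of 1.62. CYP27A1, the sterol 27-hydroxylase, was higher in LW by 1.44 and 1.61 on 2 of its 3 probes. ATP2A2, the calcium pump SERCA2, was higher in LW by 2.57 (adjusted p = 0.00954 by limma) on 1 of 4 probes, and its brightest probe had a difference of 0.00. On the separated probe liver alone of the other tissues had a like difference, 2.55, and the test of fat against the others gave an adjusted p of 0.0201.

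Of the other genes named by size with IB higher, CA3, carbonic anhydrase 3, an abundant adipocyte enzyme, was between 7.80 and 9.72 on the LW arrays and between 10.58 and 11.17 on the IB arrays (-2.02, adjusted p = 0.136 by limma). In liver its breed difference was larger, at -4.74, and in thyroid gland it was -1.60. CES1, a carboxylesterase that cleaves lipid esters, was between 7.51 and 8.72 in LW and between 9.32 and 10.68 in IB (-1.92, adjusted p = 0.184), with -1.69 in stomach. The probe annotated as CYP3A46, a cytochrome P450, was between 3.42 and 3.89 in LW, at 5.10 and 5.39 in the IB male and at 8.65 and 8.58 in the IB female. The breeds did not overlap, but the IB animals differed from each other by more than 3 units, so that the difference of -3.32 had an SE of 1.05 and an adjusted p of 0.294 by limma, and was -1.64 without the IB female. PTGDS, prostaglandin D synthase, had a difference of -1.75 (adjusted p = 0.242), with the IB female again above the IB male in both depots, and one of -1.03 without the IB female.

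PROCR, the receptor of protein C on endothelium, was between 6.48 and 7.56 in LW and between 8.49 and 9.23 in IB (-1.78, adjusted p = 0.0328 by limma). MS4A2, the beta chain of the mast cell receptor for immunoglobulin E, was between 4.31 and 5.20 in LW and between 7.06 and 7.74 in IB (-2.70, adjusted p = 0.0337), and its second probe was higher in IB too, by 1.02. CR1, complement receptor 1, was between 2.78 and 4.75 in LW and between 5.12 and 7.51 in IB (-2.85, adjusted p = 0.0567). For MS4A2 the test of fat against the other tissues gave an adjusted p of 0.0392, for PROCR 0.05005 and for CR1 0.0701.

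Several of the 24 genes had probes that also differed by breed in most or all other tissues. The probe annotated as DDX39B, an RNA helicase, was higher in LW by 3.62 in fat and by 2.70 to 4.02 in each of the other 14 tissues, and that of PTGES3 by 3.10 in fat and by 2.01 to 4.35 elsewhere. The probes of RPL38 (1.86 in fat) and of CCDC25 (-2.51 in fat) were also separated in all 14 other tissues, and that of MTCH2 (-1.66 in fat, and -0.87 without the LW female) in 10. The mean difference of CCDC25 was -1.98 outside fat. For these 5 genes (DDX39B, PTGES3, RPL38, CCDC25 and MTCH2) another, brighter probe had a difference between -0.16 and 0.48, separated only for PTGES3. The probe of CYP3A46 and the LITAF probe with the largest difference were separated the same way in 10 of the 14 other tissues. Those of FCN2 and MS4A2 were so in 8, and FCN2 the opposite way in 1. Those of SAL1, CR1 and PTGDS were so in 7, and PTGDS the opposite way in 1. The 4 probes of LITAF disagreed in sign, with separated differences of -2.21 (-1.37 without the LW male), -0.61 and 1.35. The study's own annotation gives the DDX39B probe to ATP6V1G2 and the PTGES3 probe to PTGS2, so that these names are uncertain. Over all probes past 1 log2 unit, 29 of 88 higher in LW and 48 of 96 higher in IB were separated the same way in at least 7 of the other tissues, 9 and 7 of them in all 14. limma called 11 probes for a breed difference in fat unlike that in the other tissues (0.046%), 6 of them with a symbol (SCD, SLC2A5, IL17B, ATP2A2, SAL1 and MS4A2), and 0 without the LW female.

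**Figure D4:**
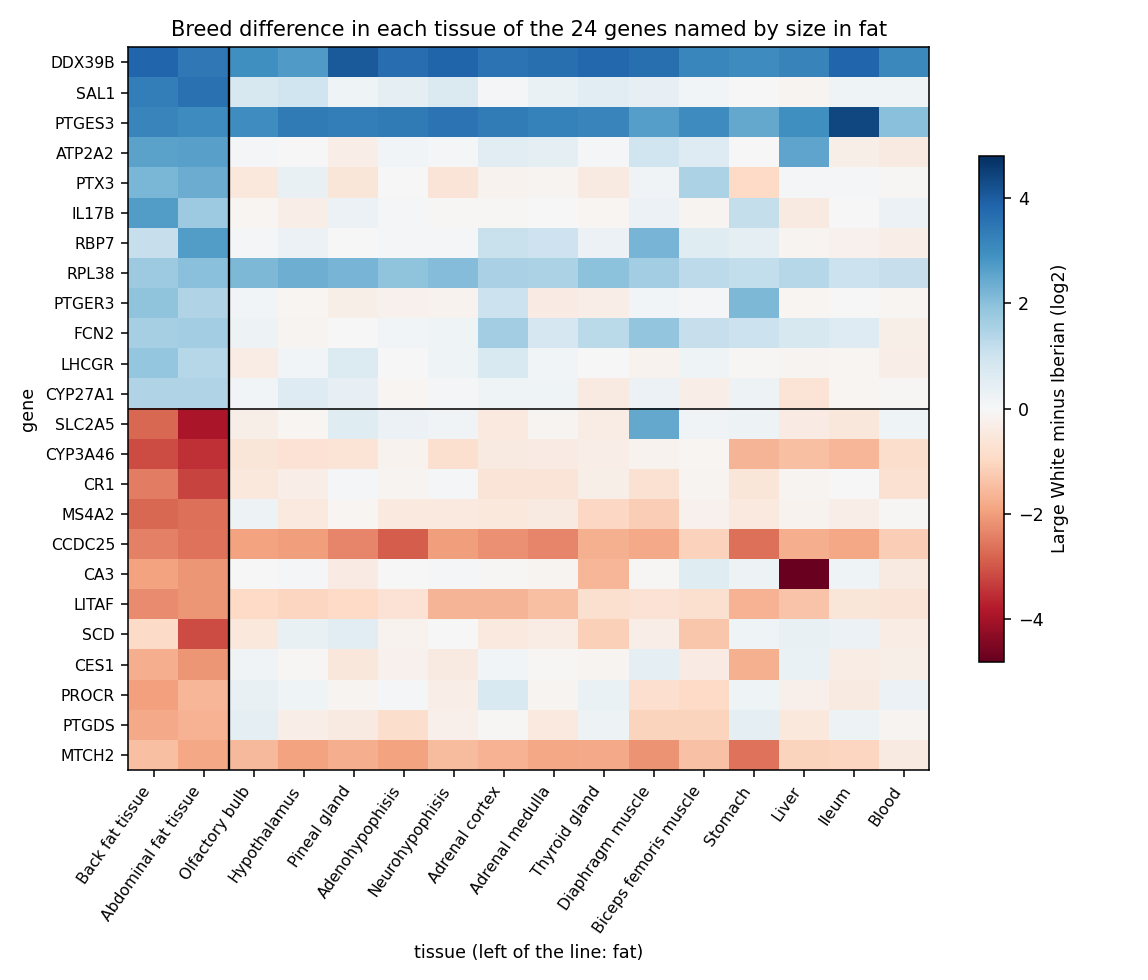
Difference between breeds (LW minus IB, log2; blue higher in LW, red higher in IB) in each of 16 tissues for the 24 genes with the largest separated differences in fat, 12 in each direction. The rows of DDX39B, PTGES3, RPL38, CCDC25, MTCH2 and LITAF keep their colour from end to end, as does CYP3A46, strongest in fat. SAL1 and MS4A2 are strongest in the 2 fat columns left of the line, and SCD in the abdominal column alone.

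Markers of macrophages were lower in LW as a list. Of 26 probes for 15 genes, 25 had a difference below 0, with a median of -0.42, and 5 were separated with IB higher (19.2%, beside 4.98% of all probes) and 0 with LW higher. The 5 were 2 probes of the protease CTSS and 1 each of the transcription factor SPI1, the toll-like receptor TLR4 and the costimulator CD86, with differences from -0.60 to -0.31. The list mean in back fat was 5.96 and 5.89 in the LW male and female and 6.70 and 6.38 in the IB male and female. In abdominal fat it was 6.48 and 6.31 in LW and 6.89 and 6.53 in IB, so that breeds did not overlap within a depot, but the abdominal fat of the LW male lay above the back fat of the IB female. Within back fat alone 21 of 26 probes had both IB arrays higher, where 22.9% of all probes did, and within abdominal fat 12, where 23.3% did, and without the abdominal array of the LW male 13 were separated over the rest, when 7.08% of all probes were. C1QA, a complement component made by tissue macrophages, had a difference of -1.64 in back fat and -0.75 in abdominal fat, and CD163, their haemoglobin scavenger receptor, of -1.32 and -0.39. In such bulk samples fewer macrophages and less RNA per macrophage cannot be told apart.

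Endothelium markers had 4 of 27 probes higher in LW and 0 higher in IB. They were PECAM1 on 2 probes, ENG and a dim probe of VWF (14.8% of the list, beside 4.65% of all probes, with a median difference of 0.32). Leaving out 1 array gave 4 to 8 higher in LW and 0 to 2 higher in IB, the 8 without the back fat of the IB female, when 6.39% of all probes were higher in LW, and 7 without the back or the abdominal fat of the LW male. ENG lay between 7.48 and 8.05 in LW and between 6.84 and 7.04 in IB. LYVE1, of lymphatic vessels and some macrophages, had differences of -1.23 and -1.27 with the breeds apart within each depot but not over both. The means of the whole endothelium list lay between 6.24 and 6.42 in LW and between 6.07 and 6.28 in IB. Fibroblast and preadipocyte markers had 2 of 20 probes in each direction over all arrays. Within back fat 12 had both IB arrays higher (60.0%) and 4 the reverse (20.0%), where the shares of all probes were 22.9% and 21.8%. Within abdominal fat there were 3 each (15.0%), fewer than the 23.3% and 19.7% of all probes. Without the abdominal fat of the LW male 7 were higher in IB (35.0%), when 7.08% of all probes were. The part of macrophage, vessel and fibroblast content in the breed differences of other genes was not tested.

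**Figure D5:**
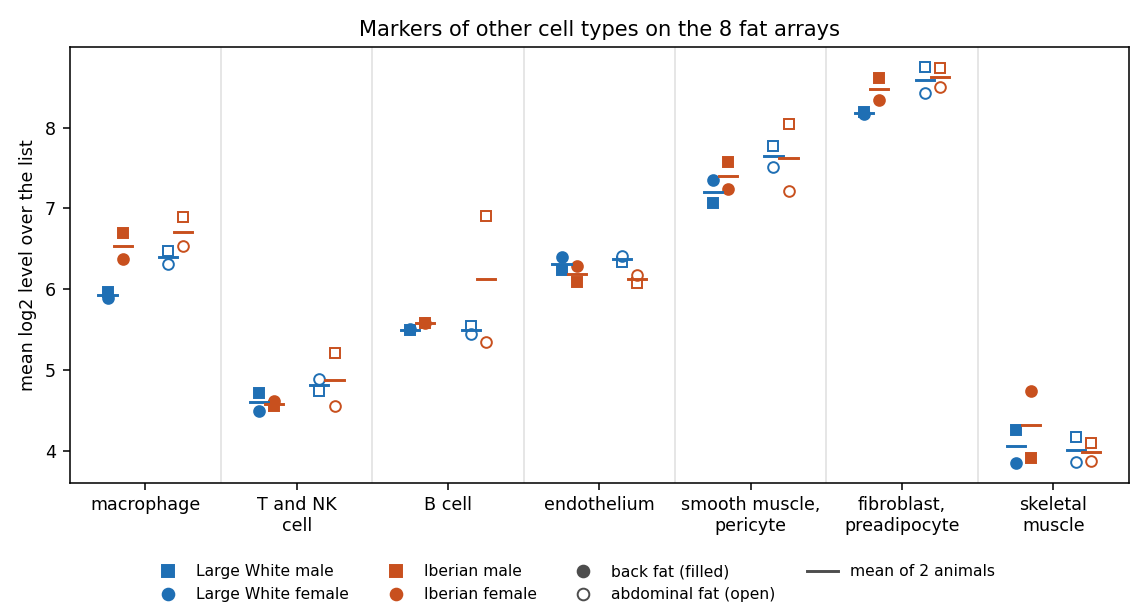
Mean level (log2) of each list of cell type markers on every fat array; marks as in the plot of the lipid synthesis genes. The macrophage mean is higher in IB within each depot, and the B cell mean is at 6.91 in the abdominal fat of the IB male and between 5.34 and 5.58 on the other arrays.

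The other lists had few separated probes in number, to be read beside 4.65% of all probes higher in LW and 4.98% higher in IB. Oxidative phosphorylation had 4 of 41 probes (9.76%) higher in IB (1 of 3 probes of NDUFS3, SDHD and SDHB on 2 probes). It had 1 higher in LW (COX7C, which was separated in all 14 other tissues as well). Fatty acid oxidation had 2 of 25 higher in IB, HADH and DECR1, by 0.49 and 0.45. Interferon-induced genes, MHC class II genes, immediate early genes, skeletal muscle markers and B cell markers had 0 separated probes in either direction, and immediate early genes had a median difference of 0.26. Extracellular matrix had 2 of 51 probes higher in LW and 1 in IB, and cholesterol synthesis 2 of 19 in LW (10.5%) and 0 in IB. Heat shock proteins had 2 of 30 in each direction. Adipocyte transcription factors had 1 of 26 in LW and 2 in IB, and cell cycle genes 0 of 29 in LW and 2 in IB. MHC class I and peptide loading had 1 of 26 probes higher in LW (B2M) and 0 in IB. Of the remaining marker lists, epithelium and mesothelium had 3 of 18 probes higher in LW (16.7%). Without the abdominal fat of the IB male 33.3% of that list were, when 6.61% of all probes were. Nerve and Schwann cells had 2 of 18 higher in IB (11.1%). Smooth muscle, red cells and platelets, and T and NK cells had 1 probe each higher in IB (5.0%, 11.1% and 4.76%).

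The breed difference itself depended on the depot for 5 probes by limma (0.0209%), and for 0 without the IB male. The only one with a symbol was ADAMDEC1, a protease of gut and lymphoid tissue, at 7.21 and 7.04 in LW back fat and 3.47 and 3.82 in IB back fat. In abdominal fat it was at 3.84 and 3.05 in LW and 3.55 and 3.17 in IB. It was thus higher in the back fat of the LW pigs than on the other fat arrays, by 3.49 over IB back fat against 0.09 in abdominal fat (adjusted p = 0.0484 by limma). The other 4 probes, without a symbol, had LW higher in back fat by 1.04 to 2.40 and IB higher in abdominal fat by 1.01 to 1.71.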

How the data were processed

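The authors generated signals with GCOS and normalized all arrays together by RMA, which evens out real differences between whole arrays. The deposited values are log2 values of 24123 probe sets by 64 arrays, and no version is given in the sources used here. Here 188 control probe sets were left out. Of the others the platform annotation, which can be old, gives 10069 probes 1 symbol, 198 several and 13668 none. An array has no read depth, and the number of animals, 2 per breed, limits the precision.

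Breeds were compared on each animal's mean over back and abdominal fat with limma 3.58.1 in R 4.3.3, with p adjusted after Benjamini and Hochberg over all 23935 probes. The breed difference between depots, and in fat against the mean of 14 other tissues, was fitted on each animal's difference. Separation, counts and figures used Python 3.11.15, numpy 2.4.6, pandas 2.3.3 and matplotlib 3.10.9. Only the breed fit on animal means was tried on simulated data, with independent normal noise, for its recovery of known differences. The replicate numbers pair no animals between breeds, while depots of 1 animal were paired by design (consensus correlation 0.0922).

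The 27 gene lists and the comparison were chosen with earlier results of these data known. Named genes are SCD, FASN and LEP, the 12 with the largest separated difference of 1 log2 unit or more in each direction, and separated members of the lists, otherwise at most 3 of the largest difference. Of several probes the brightest was taken, except where a gene was named for another. Genes outside this rule (ADIPOQ, FABP4, CD3E, ADAMDEC1 and the array checks) were chosen after their values were seen.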

Additional observations from a re-analysis of the deposited data

Results flagged for a closer look

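Dixon's test at the 95% level was applied to the 4 arrays of each breed for the 26 genes named by size or as markers and for the 27 lists. By chance alone about 1 in 20 groups passes it, which over all these groups is about as many as were found. The abdominal fat of the IB male lay outside the other IB arrays in the list means of B cell markers, at 6.91 against 5.34 to 5.58, and of T and NK cell markers, at 5.20 against 4.55 to 4.61. CCDC25 was at 6.54 in the back fat of the LW female and between 6.07 and 6.10 on the other LW arrays. PTGDS was at 6.50 in the abdominal fat of the LW male and between 7.21 and 7.34 on the other LW arrays. RPL38 was at 8.19 in the abdominal fat of the IB female and between 8.39 and 8.42 on the other IB arrays.

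LW minus IB in back fat less LW minus IB in abdominal fat was 3.40 for ADAMDEC1 (adjusted p = 0.0484 by limma). For 4 probes without a symbol this signed contrast was 2.43, 2.48, 4.11 and 2.63 (adjusted p = 0.0243 each by limma). In these 4 the sign turned between the depots, and for 2 of them the size of the breed difference was greater in abdominal fat.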

How the results depend on the processing

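The 34 probes that limma called on animal means were 565 with arrays as units and the animal as replicate block, 751 with no block, 618 in a fit over all 64 arrays, 87 with sex in the fit, which sets male against male and female against female and added calls for CA3, CR1, CYP27A1, LHCGR, PTX3, RBP7, RPL38 and SAL1, 279 by the difference over the SD of all differences with a normal p, 16 among the probes above the median level, 9 on the natural logarithm of the log2 values, 76 in back fat alone and 14 in abdominal fat alone, and 30 after quantile normalization or median centring. Leaving out 1 animal gave 0 to 355, with 0 without the LW male or the LW female (replicates 1 and 2), 154 without the IB male and 355 without the IB female. A lone animal was taken to vary like the pair of the other breed. The cause was not tested. At the settings of the report 3143 probes had an unadjusted p under 0.05. The 184 separated probes past 1 log2 unit became 857 at 0.5 units, 353 in back fat alone and 411 in abdominal fat alone, and 285 to 364 without 1 animal, where fewer arrays had to agree. The 5 probes with different breed effects between depots (1955 at an unadjusted p under 0.05) were 0 to 27 without 1 animal, 0 of them without the IB male. The 11 probes of fat against other tissues (3270 at an unadjusted p under 0.05) were 5 among brighter probes and 0 to 46 without 1 animal, 0 of them without the LW female. Without the abdominal array of the IB male, chosen after seeing the data, limma called 37 and 219 were separated. For limma the mean of the IB male was filled in from his back fat and the mean depot difference of the other animals. For 26 genes no difference changed sign in 411 refits, of which 38 lost and 84 gained a call. All of these genes but LEP had no overlap between breeds to begin with. Most of the refits could therefore not change their sign, and the steady sign is no evidence of robustness.

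Apart from sex nothing pairs LW with IB pigs, as no animal or litter number joins them. Probes near the lowest levels have little room to differ downwards.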

Other observations

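Further genes were looked up after their values were seen, and are values only. Several that macrophages are known for were higher in IB on all arrays: the lectin LGALS3 by 1.18, the glycoprotein GPNMB by 1.30 on its brightest probe, the phagocyte oxidase subunit listed as GP91-PHOX by 1.06, ALOX5AP by 1.12, AOAH by 1.25 on 1 of 2 probes and the lysosomal activator GM2A by 1.29 and 1.33. Most were not limited to fat: the 2 probes of GM2A were separated the same way in 12 and 11 of the 14 other tissues. AOAH was so in 9, GP91-PHOX in 8 and ALOX5AP in 7. The second probe of GM2A and GP91-PHOX were each separated the opposite way in 1. LGALS3 was separated the same way in 4 and the opposite way in 3, and GPNMB in 2 and 3. Their mean differences (LW minus IB) outside fat were -0.13 and -0.03. CTSK, an osteoclast and macrophage protease, had a difference of -0.55 with overlap. ADAMDEC1, looked up with these genes, ran the other way, higher in LW by 3.49 in back fat and 0.09 in abdominal fat. LGALS3 lay between 8.16 and 9.02 on the LW arrays and between 9.46 and 10.33 on the IB arrays. KIT, the receptor of mast cells and other lineages, ran against MS4A2, higher in LW by 0.82, and was separated the same way in all 14 other tissues.

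Of single other genes higher in IB, FBXO32, a ubiquitin ligase known from muscle wasting, was higher by 1.17 and 1.36 on its 2 probes, and GADD45A, a growth arrest gene, by 1.43. The electron carrier CYB5A, which serves SCD, lay between 9.55 and 9.85 in LW and between 10.44 and 11.03 in IB. PHYH, of peroxisomal fatty acid oxidation, lay between 9.34 and 10.17 in LW and between 10.81 and 10.85 in IB.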
